A study of Homo sapiens with 3 samples.

Results

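Promoters bound by both BMAL1 and MAX were the peaks of the BMAL1 list that shared at least 1 bp with a MAX peak and had at least 1 bp within 300 bp either side of a transcription start site (TSS) of any annotated transcript. They numbered 307 of the 756 BMAL1 peaks (40.6%), or 307 of the 333 BMAL1 peaks at promoters, and each was paired with 1 of the 13650 MAX peaks. Because the sites were chosen by the measured peaks of both libraries, the presence and strength of both factors at them describe the selection and were not tested. Chromatin immunoprecipitation followed by sequencing (ChIP-seq) was done in MDA-MB-231, an established line of human breast adenocarcinoma cells that lack the common hormone receptors, cross-linked near confluence, and no genotype, drug or synchronization is given in the labels. The groups were an anti-BMAL1 library, an anti-MAX library and an input library from chromatin prepared in the same way, with 1 library each. No value below therefore has a replicate error, and intervals cover counting error only. All coordinates are on the hg19 (GRCh37) assembly.

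BMAL1 pairs with CLOCK and binds the E-box, a short palindromic element, to activate the *PER*, *CRY* and *NR1D* genes, whose products feed back to repress it. MAX is the common partner of MYC, which activates growth and metabolic genes, and of MNT and the MXD proteins, which repress, and these dimers bind the same E-box. A site listed for both factors in bulk chromatin can reflect binding in the same cells or in different ones, which these data cannot tell apart.

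The shared promoter sites of clock genes are shown first, since all but that of *BHLHE40* were among the strongest for BMAL1. Each line gives 30 bases or fewer around the E-box CACGTG nearest to the BMAL1 summit or, where the peak has no E-box, around its E′-box (CACGTT or AACGTG), read from the GRCh37 reference in the direction of the named gene with these elements in capitals. For *NR1D1* the line spans an E-box and an E′-box, and for the upstream *DBP* site, which has neither, it is centred on the summit.
PER1, upstream site, chr17:8059845-8059874, minus strand: cggcccctctctCACGTGtatctctcccgc
PER1, downstream site, chr17:8055878-8055907, minus strand: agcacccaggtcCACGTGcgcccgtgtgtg
PER2, chr2:239197431-239197460, minus strand: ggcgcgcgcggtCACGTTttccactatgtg
CRY1, chr12:107487399-107487428, minus strand: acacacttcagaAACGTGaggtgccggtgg
CRY2, chr11:45868826-45868855, plus strand: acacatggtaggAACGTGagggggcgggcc
NR1D1, chr17:38257283-38257311, minus strand: gcaatCACGTGaagccctCACGTTtgcaa
NR1D2/NKIRAS1, chr3:23987445-23987474, minus strand: gccgagcggcctCACGTGtccccgcccgcc
BHLHE40, chr3:5020865-5020894, plus strand: agcgttgtccaaCACGTGagactcatgtga
DBP, TSS site, chr19:49137941-49137970, minus strand: acattcctgcgcCACGTGagtcctcccatc
DBP, upstream site, BMAL1 summit, chr19:49141002-49141031, minus strand: ggcccaaactgggtcacggtcccgcccccc
TEF, chr22:41777741-41777770, plus strand: cacctggccccgCACGTGtctatcttatcc

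Of 10 clock repressor genes, 6 had a shared site at the TSS of a protein-coding transcript (*PER1*, *PER2*, *CRY1*, *CRY2*, *NR1D1* and *BHLHE40*), and *NR1D2* had one at a non-coding transcript. *PER3*, *BHLHE41* and *CIART* had none. For comparison, 284 of 19748 protein-coding genes (1.44%) had a shared site and 32.5% had any MAX peak at a TSS. Of the clock output genes of the PAR bZIP family and their relative, 2 of 4 had a site, *DBP* and *TEF*, which encode activators of the D-box. None of 7 clock activator genes had one, and none of these had a MAX peak at a TSS, which a shared site requires. None of 13 genes for clock protein kinases and ubiquitin ligases had one, although 5 had a MAX peak at a TSS. With a share of 1.44% over all protein-coding genes, no site in lists this short cannot be told apart from genes in general.

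*PER1*, which encodes a core repressor of BMAL1, carried the strongest shared promoter site. Its BMAL1 pileup, the number of extended fragments at the summit, was 440, and its fold enrichment, the pileup divided by the local background, was 110.71. The paired MAX peak had a pileup of 170 and a fold enrichment of 53.94. The site ranked 2 of 756 in the BMAL1 list and 2 of 13650 in the MAX list. Its BMAL1 summit was at -124 bp from an upstream start of *PER1* (negative values are upstream). A second shared site at a downstream start of *PER1* had fold enrichments of 37.77 for BMAL1 and 22.59 for MAX. *PER1*, *DBP* and the non-coding RNA gene *GASAL1* were the genes named at 2 sites each.

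The cryptochrome genes, whose products repress CLOCK and BMAL1 together with PER proteins, had nearly equal values. *CRY1* had fold enrichments of 75.56 for BMAL1 and 26.02 for MAX. *CRY2* had 75.15 for BMAL1 and 26.92 for MAX. Neither peak held a CACGTG, and each held 1 E′-box. At *CRY2* the E′-box lay 26 bp from the BMAL1 summit, but at *CRY1* it lay 198 bp away. *PER2* showed the same composition, with 1 E′-box and no E-box, at fold enrichments of 47.42 for BMAL1 and 15.19 for MAX, and its E′-box was 129 bp from the BMAL1 summit.

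*NR1D1*, encoding the nuclear receptor REV-ERBα that represses *BMAL1*, had fold enrichments of 58.12 for BMAL1 and 17.13 for MAX. Its only E-box formed a pair with an E′-box 7 bases away, but this E-box was 341 bp from the BMAL1 summit, while another E′-box was 45 bp away. The site near *NR1D2*, the REV-ERBβ gene, was named for a coding TSS of the divergent gene *NKIRAS1*, 598 bp from the summit, and reached 50.02 for BMAL1 and 11.81 for MAX, with the summits 353 bp apart. *BHLHE40*, which encodes an E-box binding repressor, had weaker values of 14.44 for BMAL1 and 17.45 for MAX, with the summits 390 bp apart. Both *DBP* sites lay at an annotated coding start of the gene. The upstream site, its summit at -381 bp from an upstream start, had 94.57 for BMAL1 and 31.25 for MAX. Its peak held no E-box or E′-box. The site called the TSS site, its summit at -3 bp from a start further downstream, had 54.8 and 16.45 with 2 E-boxes. *TEF* had 53.26 for BMAL1 and 18.4 for MAX, with 3 E-boxes.

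The other sites among the 12 of highest BMAL1 fold enrichment are shown next, since their BMAL1 values lay in the range of the clock gene sites.
ENSG00000274949, chr20:3792544-3792573, plus strand: agggaggggcctCACGTGgctgggcctcct
RALGDS, chr9:136024892-136024921, minus strand: ggggcggacggaCACGTGagatcggccgca
ADIRF-AS1, chr10:88731117-88731146, minus strand: gtgcttcgttctCACGTGcacggccccgtg
NR6A1, chr9:127533912-127533941, minus strand: tgggcttcgttgCACGTGctcacccggctg
PLD6, chr17:17109810-17109837, minus strand: cctggCACGTGgcctggCACGTGgccgt

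The gene ENSG00000274949, for a long non-coding RNA (lncRNA), had a BMAL1 fold enrichment of 98.63 and a MAX fold enrichment of 16.75, ranking 3 of 756 and 1133 of 13650 in their lists. *RALGDS*, which encodes an exchange factor for Ral GTPases, had 84.75 for BMAL1 and 12.17 for MAX, from pileups of 166 and 20, and ranked 5 and 3570. The antisense lncRNA gene *ADIRF-AS1* had 76.09 and 26.49 with 4 E-boxes, and *NR6A1*, an orphan nuclear receptor gene, had 58.2 and 22.52. *PLD6*, encoding a mitochondrial phospholipase, had 51.4 and 35.73, and its E-boxes nearest to both summits were a pair with 6 bases between.

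Over all 307 sites the BMAL1 fold enrichment had a median of 11.53 (quartiles 8.64 and 16.2, range 2.48 to 110.71), and the MAX fold enrichment a median of 16.5 (quartiles 11.3 and 20.9, range 3.63 to 53.94). The median pileups were 25 and 30 fragments. The MAX value was above the median of the whole MAX list at 264 sites (86.0%), and the BMAL1 value was above the median of the whole BMAL1 list at 183 (59.6%). The 6999 promoter peaks of MAX without a BMAL1 peak had a median MAX fold enrichment of 10.2, and the 329 shared sites away from promoters had medians of 9.69 for BMAL1 and 12.1 for MAX. As both lists chose the sites, these are descriptions.

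**Figure D1:**
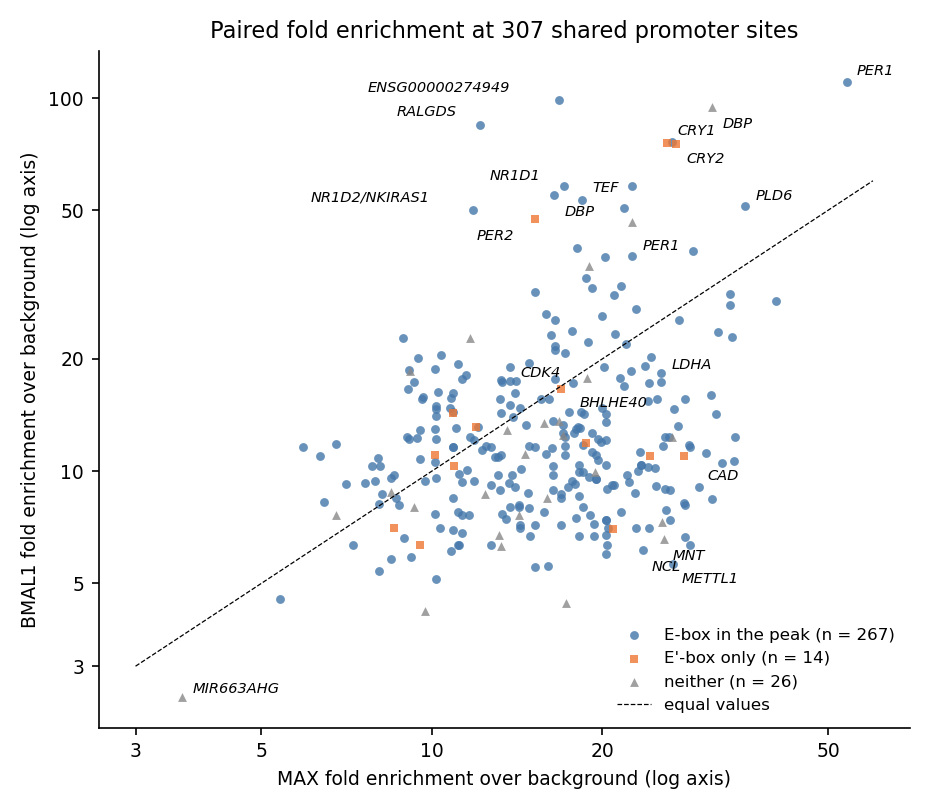
BMAL1 fold enrichment against MAX fold enrichment at the 307 shared promoter sites, both on log axes, with 1 point per site marked by the element in the BMAL1 peak and a dashed line at equal values. *PER1* lies at the upper right (110.71 and 53.94), *RALGDS* and ENSG00000274949 lie high on the BMAL1 axis at moderate MAX values, and *NCL*, *CAD*, *MNT* and *METTL1* lie at high MAX and low BMAL1 values.

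Spearman's rho of the paired fold enrichments over the 307 sites was 0.198 and Pearson's r of the log2 values was 0.298, and without the 11 clock gene sites these were 0.170 and 0.252 over 296 pairs. All pairs share 1 input library, and the local backgrounds that divide both pileups had a rho of 0.873 with each other. With the pileups themselves the rho was 0.296. The ratio of BMAL1 to MAX fold enrichment had a median of 0.745 and ran from 0.212 to 6.96. Since the libraries differed in depth (13866783 and 11545865 tags) and in the duplicates kept per position (2 and 1), only the order of the ratios is compared.

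Clock gene sites other than that of *BHLHE40* lay above the upper quartile of the ratios (1.20). The ratio rises with the BMAL1 fold enrichment, for which these sites were already shown as among the strongest. The 8 sites of clock repressor genes had a median ratio of 2.85, from 0.828 at *BHLHE40* to 4.24 at *NR1D2*, and the 3 sites of *DBP* and *TEF* lay between 2.89 and 3.33. The highest ratios were those of *RALGDS* (6.96), ENSG00000274949 (5.89), the *NR1D2* site (4.24), *NR1D1* (3.39), the *DBP* TSS site (3.33) and *PER2* (3.12). The lowest were those of *METTL1*, a tRNA methyltransferase gene (0.212), *TRIM8*, a ubiquitin ligase gene (0.222), *PPRC1*, a PGC-1-related coactivator gene (0.238), *MNT* (0.256), ENSG00000267096 (0.256) and *NCL*, the nucleolin gene (0.260). The BMAL1 fold enrichment of these last 6 sites did not exceed 6.65, whereas their MAX fold enrichment was at least 17.26.

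**Figure D2:**
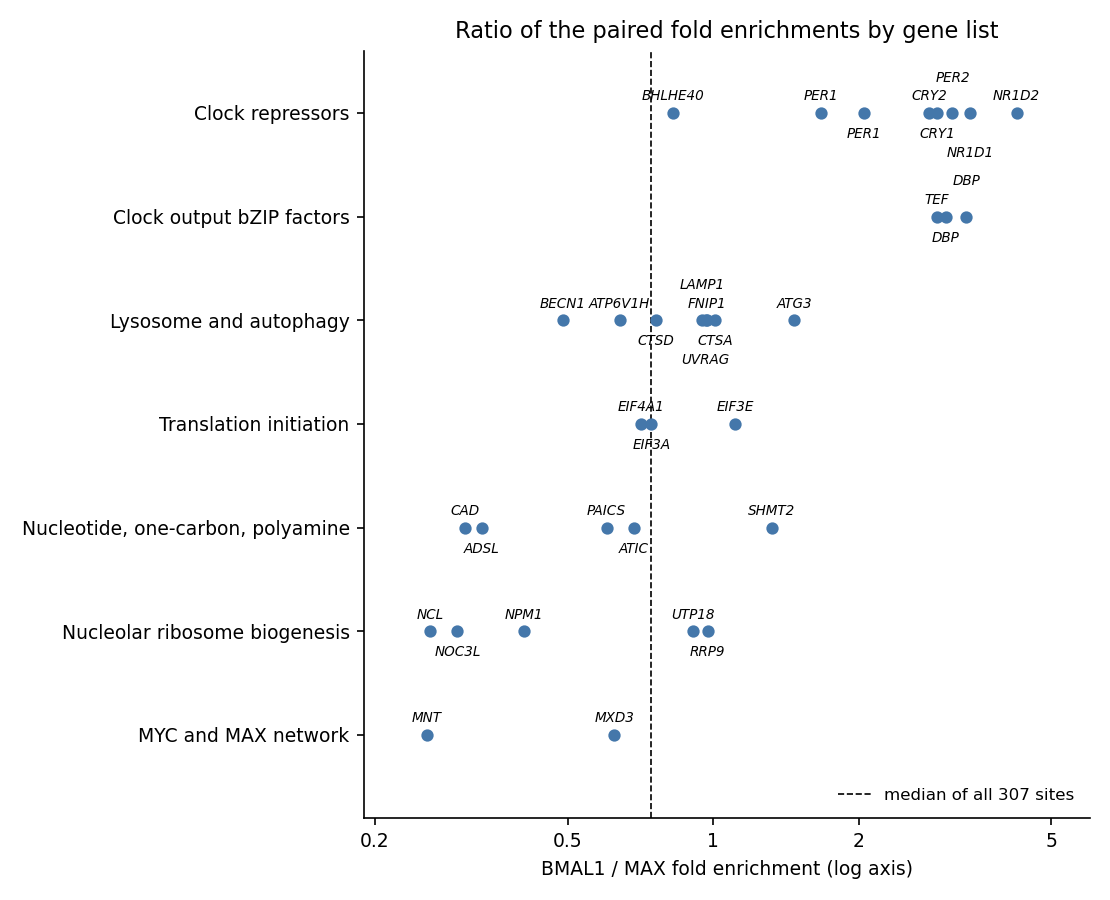
Ratio of BMAL1 to MAX fold enrichment on a log axis at shared promoter sites, 1 point per site, for 7 gene lists, with the median of all 307 sites (0.745) as a dashed line. All 11 sites of the clock lists lie above the median, and the lowest points are *MNT*, *NCL*, *NOC3L* and *CAD*.

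Growth and metabolic genes known as MYC targets had shared sites with moderate BMAL1 and often high MAX values. The elements of a few of them are shown with those of *METTL1* and *PPRC1*, since their E-box has the same core as at *PER1*.
NCL, chr2:232328551-232328580, minus strand: ctggcaagccgaCACGTGgtgggccccgga
CAD, chr2:27440307-27440336, plus strand: cgcgccgttagcCACGTGgaccgactccgg
NPM1, chr5:170815577-170815606, plus strand: gCACGTGgttgcCACGTGgttgggggaggg
CDK4, chr12:58146292-58146321, minus strand: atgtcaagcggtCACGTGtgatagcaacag
LDHA, chr11:18416011-18416040, plus strand: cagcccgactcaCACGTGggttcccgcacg
METTL1, chr12:58165885-58165914, minus strand: ggcctgcgcctcCACGTGgatttggtagag
PPRC1, chr10:103893314-103893343, plus strand: ccttttcggagcCACGTGgggttgggggag

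Of 47 nucleolar ribosome biogenesis genes, 46 had a MAX peak at a TSS and 5 (10.6%) had a shared site. Over all protein-coding genes these shares were 32.5% and 1.44%, and a shared site by definition overlaps a MAX peak. *NCL* had fold enrichments of 6.13 for BMAL1 and 23.62 for MAX, *NPM1* had 11.62 and 28.56, and *NOC3L* had 8.23 and 27.8. *RRP9* (17.26 and 17.73) and *UTP18* (13.31 and 14.66) had ratios above the median of all sites, and the other 3 had ratios below it. Nucleolin and nucleophosmin are abundant nucleolar proteins, and the others act in the maturation of ribosomal RNA.

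Again for comparison, 32.5% of all protein-coding genes had a MAX peak at a TSS and 1.44% had a shared site. Of 32 genes of nucleotide, one-carbon and polyamine synthesis, 22 had a MAX peak at a TSS and 5 (15.6%) had a shared site. They were *CAD*, which starts pyrimidine synthesis (9.09 for BMAL1 and 29.62 for MAX), the purine synthesis genes *ADSL* (6.76 and 20.31), *PAICS* (11.98 and 19.91) and *ATIC* (17.38 and 25.38), and the serine hydroxymethyltransferase gene *SHMT2* (17.52 and 13.25). Each of these 5 peaks held 2 E-boxes. In the order of ratios *SHMT2* was the one of the 5 above the median of all sites. As a shared site by definition overlaps a MAX peak, 15.6% and 1.44% are not compared at equal MAX binding.

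Of 79 lysosome and autophagy genes, 47 had a MAX peak at a TSS and 7 (8.86%) had a shared site, against 1.44% of all protein-coding genes, and *CTSD* had one at a non-coding transcript. Their 8 sites had BMAL1 fold enrichments of 5.87 to 19.06, the highest at *LAMP1*, a lysosomal membrane protein gene (MAX 20.11), and the lowest at *ATP6V1H*, a proton pump subunit gene (MAX 9.17). The others were *ATG3* (14.93 and 10.15), *FNIP1* (15.64 and 16.08), *BECN1* (9.51 and 19.46), *UVRAG* (9.39 and 9.73), *CTSA* (8.15 and 8.08) and *CTSD* (11.1 and 14.6). The *BECN1* site also lay at a TSS of *PSME3*, for which it was named, with the BMAL1 summit at -23 bp. A MAX peak lay at a TSS of 59.5% of the listed genes and of 32.5% of all protein-coding genes. A shared site by definition overlaps a MAX peak, so 8.86% and 1.44% are not compared at equal MAX binding.

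The following lists had few shared sites, to be read against the 1.44% of all protein-coding genes. A MAX peak at a TSS, which a shared site requires, was more frequent in these lists than in all protein-coding genes (32.5%). Of 39 translation initiation factor genes, 31 had a MAX peak at a TSS and 3 had a shared site. *EIF3E* had 23.32 for BMAL1 and 21.01 for MAX, *EIF4A1*, encoding an RNA helicase, had 12.62 and 17.79, and *EIF3A* had 9.74 and 13.08. Among 46 splicing factor genes, 38 of which had a MAX peak at a TSS, *PTBP1* (8.98 and 25.81) and *SNRPE* (10.95 and 24.26) had a shared site. The lactate dehydrogenase gene *LDHA* (18.32 and 25.38) was the one site of 30 genes of glycolysis and the pentose phosphate pathway, of which 21 had a MAX peak at a TSS. *CDK4*, which drives cells out of G1, was the one site of 38 cell cycle genes, of which 31 had a MAX peak at a TSS. It had 17.41 for BMAL1, 13.75 for MAX and 4 E-boxes. A further list held 5 MYC target genes. All 5 had a MAX peak at a TSS, and *CDK4* and *NCL* had a shared site.

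Several large lists had no shared site in spite of frequent MAX peaks. MAX was listed at a TSS of 74 of 83 cytosolic ribosomal protein genes, 32 of 37 aminoacyl-tRNA synthetase genes, 24 of 28 chaperone genes and 20 of 23 genes of cholesterol and fatty acid synthesis, and a shared site at 0 of each. With a share of 1.44% over all protein-coding genes, a count of 0 in lists of this length cannot be told apart from that of genes in general. A shared site by definition overlaps a MAX peak, so genes with a MAX peak are the closer reference. Of all protein-coding genes, 6426 had a MAX peak at a TSS and 284 had a shared site. The counts of 0 were not tested against this reference. The 13 NAD and sirtuin genes and the 7 genes of the USF and MiT factors had 0 as well. Of 78 mitochondrial ribosomal protein genes 2 had one, *MRPL36* (9.56 and 10.15) and *MRPL43* (6.34 and 9.52). The *MRPL43* site also lay at a TSS of *TWNK*, for which it was named. Genes with a ZNF symbol had a site at 7 of 512 (1.37%) and solute carrier genes at 6 of 373 (1.61%), near the share of all genes.

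Among transcription factor genes, *MNT*, whose product is a repressive partner of MAX, had 6.58 for BMAL1 and 25.71 for MAX with neither element in the BMAL1 peak, and *MXD3*, of the same network, had 15.58 and 24.94. These were 2 of 13 genes of the MYC and MAX network, 9 of which had a MAX peak at a TSS. Over all protein-coding genes, 1.44% had a shared site and 32.5% a MAX peak at a TSS. The shares of shared sites are not compared at equal MAX binding, since a shared site by definition overlaps a MAX peak. *HIF1A*, the hypoxia factor gene, had 16.58 for BMAL1 and 9.07 for MAX. *KLF9*, encoding a zinc finger factor under circadian control, had 11.01 and 27.87 with an E′-box only. *THRA*, the thyroid hormone receptor gene next to *NR1D1*, had 11.84 and 6.77, and *TXNIP*, a glucose-responsive gene, had 17.73 and 18.78 without either element. Most genes of their lists had no shared site. *HIF1A* was 1 of 9 listed bHLH-PAS factor genes outside the clock, and *KLF9* was 1 of 17 KLF genes. *THRA* and *NR6A1* were 2 of 37 nuclear receptor genes outside the clock, and *TXNIP* was 1 of 6 glucose-responsive genes. Of 28 small nucleolar RNA host genes, 2 had a site, *SNHG29* (9.2 and 12.69) and *SNHG5* (9.36 and 11.28), and no share over all lncRNA genes was computed to set beside this count.

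The sites of highest MAX fold enrichment after *PER1* were *NRSN2-AS1* (40.53), *PLD6* (35.73), the proteasome assembly gene *PSMD9* (34.27), the RNA polymerase II subunit gene *POLR2I* (34.09), the pyruvate carboxylase gene *PC* (33.85), *MTHFD1L* of mitochondrial one-carbon metabolism (33.55) and *CREBRF* (33.52). Their BMAL1 values ran from 10.64 at *POLR2I* to 51.4 at *PLD6*. Each of these peaks held at least 1 E-box.

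Most shared sites lay at or just upstream of a start site. Nearness to a TSS was set by the rule, which required part of the peak to lie within 300 bp of one. The positions below are therefore descriptions. A TSS fell inside the BMAL1 peak at 244 sites (79.5%), and the summit was upstream of the named TSS at 224 (73.0%). The median position of the BMAL1 summit was -64 bp from the TSS, with quartiles at -168.5 bp and 1.5 bp. Within 100 bp of the TSS lay 141 summits (45.9%), and within 300 bp 254 (82.7%). The paired MAX summits had a median of -81 bp.

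**Figure D3:**
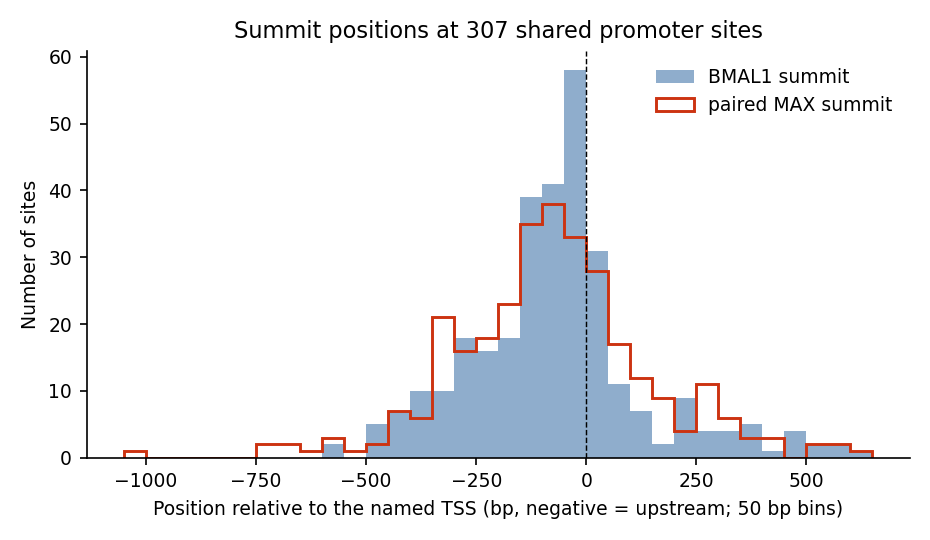
Number of the 307 sites by the position of the BMAL1 summit (filled bars) and of the paired MAX summit (outline) relative to the named TSS, in 50 bp bins with upstream positions negative. Both distributions peak just upstream of the TSS, with medians of -64 bp and -81 bp.

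The summits of both factors lay close together. Since the rule required the peaks to overlap, short distances follow in part from the selection. The distance between the summits had a median of 55 bp (quartiles 22.5 and 111). It was at most 50 bp at 149 sites (48.5%) and over 250 bp at 20 (6.51%). The MAX summit was upstream of the BMAL1 summit at 153 sites and downstream at 151, so neither side prevailed. The paired MAX peak was the longer at 258 sites (84.0%), and 182 BMAL1 peaks (59.3%) lay wholly inside it, with median lengths of 686 bp for MAX and 432 bp for BMAL1.

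The sites were named by a protein-coding transcript in 247 cases (80.5%), and 45 (14.7%) were named after an lncRNA gene. TSSs on both strands were near 92 sites (30.0%), a share close to that of the MAX promoter peaks without BMAL1 (30.1%). The BMAL1 summit fell outside annotated transcripts at 95 sites, in introns at 90, in untranslated exon sequence at 70, in other non-coding exons at 42 and in coding sequence at 10. In all, 413 genes had a TSS near a shared site, of which 307 were protein-coding genes and 99 were lncRNA genes, and 284 genes had such a TSS of a protein-coding transcript. Chromosomes 17 and 19 held 31 sites each, together 20.2% of the shared promoter sites and 17.3% of all BMAL1 peaks.

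E-boxes were counted in 200 bp windows centred on the summits, and the search for CACGTG covers both strands because the element is its own reverse complement. CACGTG occurred at 245 of 307 BMAL1 summits of shared promoter sites (79.8%, Wilson 95% interval 75.0% to 83.9%). At shared sites away from promoters the share was 75.4%, a difference of 4.42 percentage points with a Newcombe 95% interval from -2.08 to 10.8, so no difference was detectable at this number of sites. The share was 20 of 26 at BMAL1 promoter peaks without MAX (76.9%, interval 57.9% to 89.0%). At BMAL1 peaks without MAX away from promoters the share was 56 of 94 (59.6%, interval 49.5% to 68.9%). It was 5.68% in windows centred on the canonical TSSs of 19737 protein-coding genes. Including the E′-box (CACGTT, or AACGTG on the other strand), the shares were 84.0% at shared promoter sites and 8.65% at these TSSs.

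**Figure D4:**
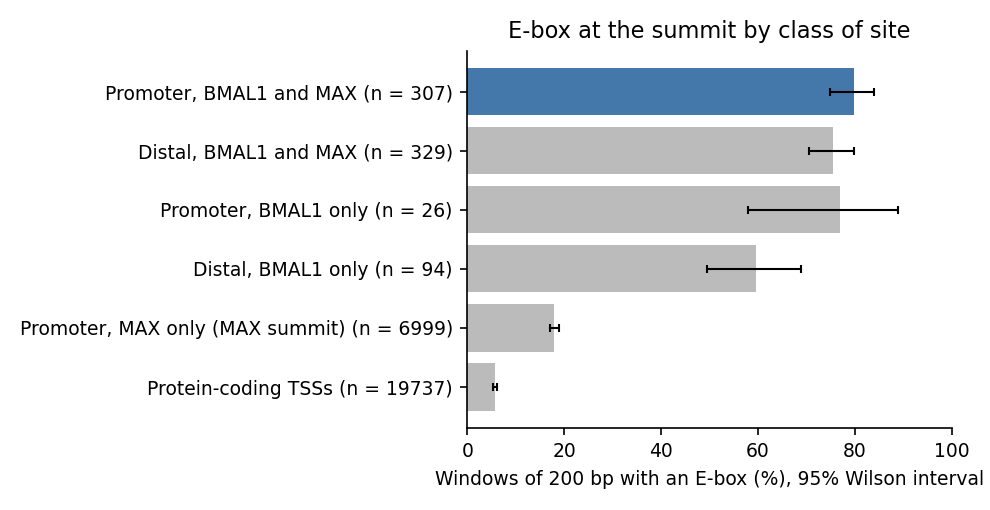
Share of 200 bp windows that hold the E-box, in percent, for 4 classes of BMAL1 peaks at the BMAL1 summit, MAX promoter peaks without BMAL1 at the MAX summit, and canonical protein-coding TSSs, with Wilson 95% intervals as bars. The 3 classes with BMAL1 at a promoter or with both factors lie between 75.4% and 79.8%. BMAL1 peaks away from promoters without MAX lie at 59.6%, and MAX promoter peaks without BMAL1 lie at 17.9%.

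To compare the sites with other MAX-bound promoters in the same way, windows were centred on MAX summits in both. CACGTG was then found at 218 of 307 shared promoter sites (71.0%) and at 1254 of 6999 MAX promoter peaks without BMAL1 (17.9%), a difference of 53.1 points (interval 47.7 to 58.0). Among peaks with a MAX fold enrichment at or above the median of the shared sites, the shares were 81.2% of 154 and 43.9% of 724, a difference of 37.2 points (interval 29.4 to 43.7). Seen from the MAX list, a BMAL1 peak overlapped 224 of 1478 MAX promoter peaks with an E-box at the summit (15.2%) and 95 of 5840 without one (1.63%).

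The bases next to the E-box differed from those at other MAX-bound promoters. Reading the outer base on each side, E-boxes fall into 10 octamer classes, of which 2 were picked out after the values were seen. The octamer CCACGTGA, or TCACGTGG on the other strand, was the one nearest to the MAX summit at 55 of 216 shared promoter sites with an E-box there (25.5%) and at 158 of 1248 MAX promoter peaks without BMAL1 (12.7%), a difference of 12.8 points (interval 7.11 to 19.2). The symmetric octamer CCACGTGG was at 13 of 216 (6.02%) and 243 of 1248 (19.5%), a difference of -13.5 points (interval -16.8 to -8.93). Among the 1110 canonical protein-coding TSS windows that held an E-box with both outer bases, CCACGTGA made up 26.3% (interval 23.8% to 29.0%), close to the share at shared promoter sites, and CCACGTGG 10.3%. Differences were also seen for ACACGTGA (5.57 points, interval 2.17 to 10.3) and ACACGTGG (-7.36 points, interval -10.5 to -2.98). The intervals of the remaining classes spanned both signs. Counted the other way, a BMAL1 peak overlapped 25.8% of 213 MAX promoter peaks with CCACGTGA and 5.08% of 256 with CCACGTGG. The share was highest for ACACGTGA (30.3% of 66). In the remaining classes it ran from 7.73% (ACACGTGG) to 20.5% (ACACGTGT), so CCACGTGA was not set apart from all other flanks.

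The contrast between CCACGTGA and CCACGTGG was also present among the stronger MAX peaks. At or above the median MAX fold enrichment of the shared sites, CCACGTGA made up 14.5% of 124 shared sites and 4.42% of 317 others (difference 10.1 points, interval 4.22 to 17.6), and CCACGTGG 9.68% and 29.3% (difference -19.7 points, interval -26.3 to -11.6). Around BMAL1 summits, CCACGTGA was nearest at 29.5% of 244 shared promoter sites and 14.9% of 248 shared sites away from promoters, a difference of 14.6 points (interval 7.27 to 21.7), and the share at shared promoter sites (interval 24.1% to 35.5%) again lay near the 26.3% of canonical TSSs. Among the E-boxes printed above, those of *CAD*, *METTL1* and *PPRC1* and the one nearest to the BMAL1 summit of *NPM1* have the symmetric flanks, and those of ENSG00000274949 and the *DBP* TSS site have the other. The 8 shared sites whose nearest E-box was CCACGTGG had medians of 8.49 for BMAL1 and 27.6 for MAX, and the 72 with CCACGTGA had 11.5 and 13.9.

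Other elements separated promoter from distal sites. The GC box (GGGCGG, or CCGCCC on the other strand) was at 57.0% of shared promoter sites and 17.6% of shared distal sites (difference 39.4 points, interval 32.2 to 46.0), and at 53.7% of canonical TSSs. The ETS element (CCGGAAG or CTTCCGG) was at 13.0% and 3.34%, with 11.3% of canonical TSSs, and the CCAAT box (CCAAT or ATTGG) at 30.0% and 19.8%, with 25.1% of canonical TSSs. The AP-1 element (TGAGTCA or TGACTCA) was less frequent at shared promoter sites (7.49%) than at distal ones (22.5%, difference -15.0 points, interval -20.4 to -9.55), as was the variant CATGTG or CACATG (13.7% and 33.4%). At canonical TSSs these shares were 2.12% and 5.17%. The variant CACGCG or CGCGTG was at 21.2% of promoter and 8.81% of distal shared sites, and at 10.8% of canonical TSSs. At MAX promoter peaks without BMAL1, around the MAX summit, it was at 18.8%. The shared promoter sites differed from these by 2.41 points (interval -1.89 to 7.41), so no difference was detectable. The median GC content of the windows was 66.0% at promoter and 57.0% at distal sites, and its part in these shares was not tested.

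Within the whole BMAL1 peak, 267 sites (87.0%) held at least 1 CACGTG, 14 held an E′-box only and 26 (8.47%) held neither. The number of E-boxes was 1 at 169 sites, 2 at 78 and 3 or more at 20. Peaks with 2 or more made up 31.9% of shared promoter sites and 18.8% of shared distal sites, a difference of 13.1 points (interval 6.33 to 19.7). Median peak lengths were 432 bp and 397 bp. The median BMAL1 fold enrichment was 11.0, 10.6, 13.1 and 18.2 at sites with 0, 1, 2 and 3 or more E-boxes, and the median MAX fold enrichment was 15.5, 14.9, 18.1 and 20.9.

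*GET4*, encoding a factor for the insertion of tail-anchored proteins, held the most E-boxes, 9 in 1 peak, and its array is printed from the first to the last element, with 23 or 24 bases between neighbours.
GET4, chr7:915888-916141, plus strand: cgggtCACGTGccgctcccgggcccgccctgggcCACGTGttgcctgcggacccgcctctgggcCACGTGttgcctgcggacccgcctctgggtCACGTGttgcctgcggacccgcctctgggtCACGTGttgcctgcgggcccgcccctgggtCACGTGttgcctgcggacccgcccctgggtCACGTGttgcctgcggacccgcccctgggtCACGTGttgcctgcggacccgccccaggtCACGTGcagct
The BMAL1 summit lay on one of these elements. Its fold enrichments were 50.62 for BMAL1 and 21.83 for MAX. *LAMP1* held 6 E-boxes, the first 4 of them with 10 or 11 bases between, and *PPRC1* held 5, at fold enrichments of 19.06 and 20.11, and of 6.65 and 27.92. *NCL* held 4, so peaks with many E-boxes included some of the lowest BMAL1 values.

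Pairs of E- or E′-boxes with 6 or 7 bases between, a tandem arrangement known from clock gene promoters, were in 5 of 307 peaks and in 1 of 329 shared distal peaks. Those of *NR1D1* and *PLD6* are printed above, and the other 3 follow.
RAD9A, chr11:67159327-67159354, plus strand: cggacAACGTGcgccgtCACGTGacggc
GTF3A, chr13:27998814-27998841, plus strand: cccggCACGTGtctcggCACGTGgcagc
PDP2, chr16:66914742-66914770, plus strand: ccactCACGTGcgcgcgcCACGTGggccc

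*RAD9A*, a DNA damage checkpoint gene, had 14.19 for BMAL1 and 20.31 for MAX, *GTF3A*, encoding a factor for 5S ribosomal RNA synthesis, had 15.82 and 9.65, and *PDP2*, which activates pyruvate dehydrogenase, had 19.37 and 11.11. At *PDP2* and *RAD9A* the nearest E-box was at most 4 bp from the BMAL1 summit, and at *GTF3A* it was 125 bp away.

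The E-box was centred more closely on BMAL1 than on MAX. Of the 272 sites with an E-box in either peak, the nearest one lay a median of 24 bp from the BMAL1 summit (quartiles 10 and 47) and 44 bp from the MAX summit (quartiles 15 and 84.5). It was within 25 bp of the BMAL1 summit at 142 sites (52.2%) and of the MAX summit at 98 (36.0%). The nearest E-box was closer to the BMAL1 summit at 166 sites, closer to the MAX summit at 101 and equally far at 5. At shared distal sites the medians were 26 bp and 35.5 bp. The precision of the summits was not measured, and the MAX peaks were the longer ones.

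**Figure D5:**
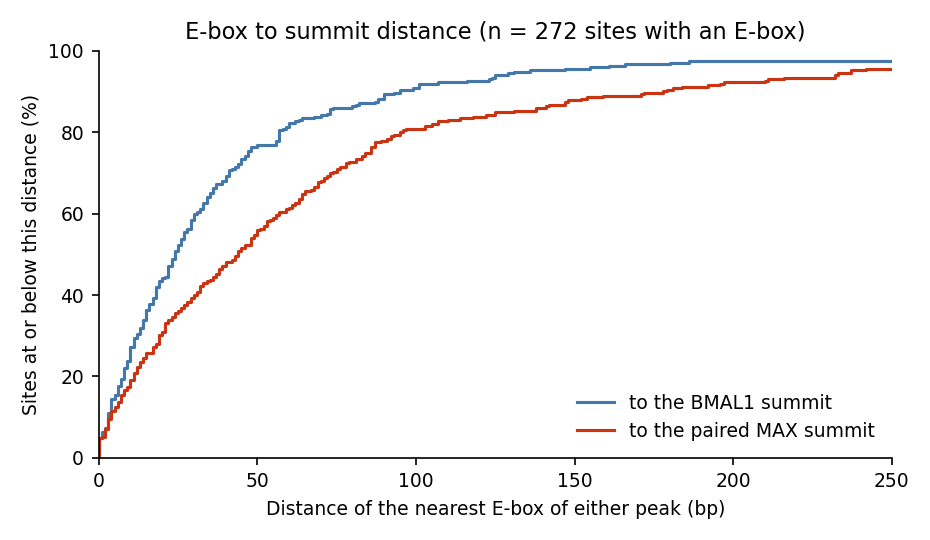
Cumulative share of the 272 shared promoter sites with an E-box in either peak, in percent, by the distance in bp from the nearest E-box to the BMAL1 summit and to the paired MAX summit. The BMAL1 curve lies above the MAX curve, with 52.2% and 36.0% of sites within 25 bp.

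Sites without CACGTG included several of the strongest. The 26 with neither element, named after the values were seen, were led by the upstream *DBP* site (94.57 for BMAL1), the lncRNA gene ENSG00000289923 (46.5 and 22.53 for MAX), the immediate early gene *EGR1* (35.53 and 18.97), *ZSWIM6* (22.72 and 11.69) and *EGR2* (18.6 and 9.14). The median over the 26 was 9.38 for BMAL1 and 15.2 for MAX, against 11.6 and 16.5 at the 267 with an E-box. Of the 14 with an E′-box only, *CRY1*, *CRY2* and *PER2* were the strongest, and the others had BMAL1 fold enrichments of 6.34 to 16.61. The lowest of all sites was *MIR663AHG*, at 2.48 for BMAL1 and 3.63 for MAX, where pileups of 74 and 90 stood over local backgrounds of 29.8 and 24.8. It was the single site with a BMAL1 fold enrichment under 3.

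The limits of the rule were passed narrowly by few sites. The smallest overlaps with a MAX peak were 27 bp at *AXL*, 131 bp at *TENT5B* and 190 bp at *AQP7*. The promoter BMAL1 peaks nearest to a MAX peak without touching it were at *RSAD1*, with a gap of 27 bp, *PPP1R3B*, with 107 bp, and *GBE1*, with 174 bp. At *AXL* the summits were 603 bp apart. The largest distances from peak edge to TSS were 298 bp at *MNT*, 286 bp at *PFDN2* and 285 bp at *KLF9*, and the nearest shared peaks left out lay 335, 343 and 346 bp away.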

How the data were processed

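The deposited BMAL1 and MAX peak lists, made from ChIP-seq of MDA-MB-231 cells, were used unchanged. According to the submitters' processing notes and the methods, the authors aligned reads to hg19 with BWA 0.6.2 and called peaks with MACS2 2.0.9 against 1 input. Per the file headers, 13866783 BMAL1, 11545865 MAX and 29308882 input tags were used, with at most 2 (BMAL1) and 1 (MAX) duplicate tags per position and a p-value threshold of 1e-05, while the methods state 1e-08. The deposited columns hold the pileup, a signal in extended fragments at the summit, the −log10 p-value and q-value, and the fold enrichment, a ratio of pileup to local background. TSSs and genes came from GENCODE 44 on GRCh37. Sites, distances and motifs were computed with Python 3.11.15 and pandas 2.3.3, and the code was tested on simulated data. The local background was taken as pileup divided by fold enrichment. Shares carry Wilson and differences Newcombe 95% intervals. With 1 library per antibody no p-value was computed. Named genes were the sites of the gene lists, the highest and lowest by fold enrichment and by ratio, and those with most E-boxes. Members and lists were chosen with earlier results of these data known. Alternatives covered the overlap, promoter width, annotation, p-value and motif window. The comparison of stronger MAX peaks and the octamers were added after seeing the data.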

Additional observations from a re-analysis of the deposited data

How the results depend on the processing

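The number of shared promoter sites ranged from 212 (summits within 100 bp) to 350 (promoters of 1000 bp either side), against 307. The share with CACGTG at the BMAL1 summit, 79.8%, was 84.4% with both lists at p 1e-12, 64.5% in 100 bp windows, 87.0% in the whole BMAL1 peak, 71.0% at the MAX summit and 84.0% with the E′-box included. The median BMAL1 fold enrichment, 11.53, was 13.1 at p 1e-12 and 12.7 where the overlap covered at least 0.5 of each peak, and in the latter setting Spearman's rho was 0.336. Among MAX promoter peaks without BMAL1, the E-box share was 43.9% at or above the median MAX fold enrichment of the shared sites, a setting chosen after seeing the data. The cause of these shifts was not tested. No paired analysis was possible because there was 1 library per antibody, and for the same reason no replicate could be left out. The pileups, with medians of 25 and 30 fragments, limit the precision of single fold enrichments.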
